A study of Homo sapiens with 54 samples.

Results

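The 10 genes described here report on 2 linked stress responses, the integrated stress response, whose transcription factor is ATF4, and the unfolded protein response of the endoplasmic reticulum. They are ATF4, ATF3, DDIT3, TRIB3, CHAC1, ASNS, SESN2, PSAT1, XBP1 and HSPA5, chosen by gene name among the 60676 genes tabulated for each library, and all 10 were found once in every library. RNA-seq was made of hMSN-like cells, which resemble the medium spiny neurons of the striatum and were differentiated with an Activin A protocol from H9, an established human embryonic stem cell line also called WA09, so that all values come from 1 cell line. The study asked how such cells respond to dopamine once and repeatedly, and 53 libraries of 18 conditions in 4 experiments were read.

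In the 1 mM and the 1 µM dopamine experiments, Acute 1 h and Acute 24 h cells had a single 1 h dose and were collected 1 h or 24 h later, while Chronic 1 h and Chronic 24 h cells had daily doses over 5 days and were collected at those times after the last of them. Each dose had its own PBS libraries, which its 4 comparisons with PBS share. In the time course cells had 1 mM dopamine daily for 2, 3, 4 or 5 days (2 Day to 5 Day) and were collected 1 h after the last dose, with ascorbic acid, the vehicle (AA), as control. In the agonist experiment cells had the D1-like receptor agonist SKF82958 or the D2-like receptor agonist quinpirole, each at 50 µM, or water. Every condition held 3 libraries except 5 Day with 2, since its replicate 1 was not analysed here. Dopamine was given in ascorbic acid and the PBS cultures were given PBS, so the drug and its vehicle cannot be told apart in the first pair of experiments, and neither can dose and experiment. Chronic cells were also older in culture than acute cells, so regimen and age cannot be told apart. The sources used here do not say whether the libraries of a condition come from separate differentiations, so the p-values measure only the spread between these libraries.

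When amino acids run short, unfolded proteins gather in the endoplasmic reticulum or heme is lacking, kinases phosphorylate the initiation factor eIF2. General translation then falls while the ATF4 mRNA is translated more, so that ATF4 protein is set largely by translation and its mRNA level is only a partial readout. ATF4 protein turns on genes of amino acid supply and further stress factors, whereas the unfolded protein response acts in addition through ATF6 and through XBP1, whose mRNA is spliced by IRE1. Reads per gene do not separate spliced from unspliced XBP1 mRNA, so its splicing was not analysed here.

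The known DNA elements of both responses were searched for in promoter windows of RefSeq (GRCh38.p14, 250 bases before to 50 bases after a start). The ER stress response element (CCAAT and CCACG spaced by any 9 bases), on either strand, stood in 27 of 35116 windows (0.0769%) and, among the 10 genes, in those of HSPA5 and XBP1. The C/EBP-ATF response element TGATGNAA, on either strand, stood in 1270 windows (3.62%) and in those of ASNS, CHAC1 and ATF3. The cAMP response element TGACGTCA stood in 649 windows (1.85%) and in none of the 17 windows of the 10 genes. A match is a description of letters, and its absence says nothing about a factor. The 250 bases upstream of a RefSeq start of each of 4 genes are shown. For HSPA5 and XBP1 this window carries the element of the unfolded protein response, and for ASNS and CHAC1 that of ATF4. Where a gene had several starts, a start with a match was taken. The CHAC1 stretch and parts of the ASNS and XBP1 stretches lie inside the gene positions given below, which come from the deposited tables. Capitals mark the element, at positions -66 to -48 of HSPA5, -52 to -34 of XBP1, -68 to -61 of ASNS and, read on the other strand, -209 to -202 of CHAC1, counted from the start. The stretches are chr9:125241344-125241593 (minus strand), chr22:28800570-28800819 (minus strand), chr7:97872409-97872658 (minus strand) and chr15:40953221-40953470 (plus strand), each printed 5′ to 3′.
HSPA5: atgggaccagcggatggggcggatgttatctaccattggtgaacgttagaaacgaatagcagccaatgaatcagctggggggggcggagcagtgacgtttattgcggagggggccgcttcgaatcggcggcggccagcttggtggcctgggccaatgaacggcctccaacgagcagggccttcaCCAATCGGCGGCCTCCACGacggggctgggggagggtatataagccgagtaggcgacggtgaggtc
XBP1: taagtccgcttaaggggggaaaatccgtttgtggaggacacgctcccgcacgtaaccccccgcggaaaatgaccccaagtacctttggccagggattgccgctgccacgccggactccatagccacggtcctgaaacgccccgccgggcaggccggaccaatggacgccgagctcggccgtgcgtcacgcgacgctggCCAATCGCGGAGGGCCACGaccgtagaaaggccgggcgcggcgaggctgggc
ASNS: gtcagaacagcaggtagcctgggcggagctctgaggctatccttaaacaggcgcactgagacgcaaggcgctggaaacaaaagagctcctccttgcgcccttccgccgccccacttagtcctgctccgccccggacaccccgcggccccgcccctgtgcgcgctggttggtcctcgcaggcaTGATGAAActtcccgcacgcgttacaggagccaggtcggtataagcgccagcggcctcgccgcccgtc
CHAC1: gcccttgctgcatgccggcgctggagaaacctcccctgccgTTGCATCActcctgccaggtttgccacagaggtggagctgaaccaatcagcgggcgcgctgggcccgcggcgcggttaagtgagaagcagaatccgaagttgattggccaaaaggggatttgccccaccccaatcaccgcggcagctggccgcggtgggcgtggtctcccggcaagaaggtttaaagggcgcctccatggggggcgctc

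Exon reads ranged from 5755919 to 27702963 per library (median 11516406) over 52 libraries. The remaining one, quinpirole replicate 1, held 137051 exon reads, with 96.7% of its gene reads in introns, and results of its experiment are given with and without it. Acute 24 h replicate 1 at 1 mM also stood apart, as described with that condition. All 6 neuron markers reached a mean of 1 TPM (a level per exon length) in every control group, as did 13 to 14 of 15 striatal markers, all 6 progenitor markers and all 6 mesenchymal markers, whereas no endothelial or pluripotency marker did. Markers of other cells than neurons were thus present, and in bulk RNA a change in the number of cells of a type and in RNA per cell cannot be told apart.

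Levels differed widely between the genes. On the TPM scale and over the 52 libraries, HSPA5, the main chaperone of the endoplasmic reticulum also called BiP, had the highest median at 415 (257.9 to 1764), followed by ATF4 at 346.2 (266.5 to 601). PSAT1, an enzyme of serine synthesis, had a median of 149.1 (77.62 to 473.6) and XBP1 one of 67.18 (41.55 to 434.8). Medians of SESN2 (48.06), DDIT3 (47.12) and ASNS (39.94) lay close to each other, with overlapping ranges of 8.833 to 280.9, 23.15 to 489.4 and 22.16 to 186.1. The lowest medians were those of TRIB3 (23.45), ATF3 (22.26) and CHAC1 (21.43). ATF4 had the smallest ratio of highest to lowest TPM among the 10 genes, and the highest TPM of ATF3, 158.1, stood against a lowest of 9.516.

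The first question was what a single 1 mM dose did after 1 h. ATF3 and ATF4 rose, and the other 8 genes did not pass the test. Exon reads were compared by edgeR's quasi-likelihood test, adjusted by the Benjamini-Hochberg method over all genes tested, and a gene passed with an adjusted p under 0.05. Of 17804 genes tested, 16% passed and 8.04% passed as higher. Both genes that passed were higher.

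ATF3 (ENSG00000162772, chr1:212565334-212620777, plus strand) codes for a stress-induced transcription factor of the ATF family that is also an immediate early gene of neurons. Its TPM was 13.11, 15.34 and 10.25 in the PBS libraries and 158.1, 98.2 and 119 at Acute 1 h. Every Acute 1 h library lay above every PBS library by a wide margin. The log2(fold change) was 3.34 (SE 0.43, edgeR adjusted p = 0.0004), a fold of 10.1. ATF4 (ENSG00000128272, chr22:39519695-39522685, plus strand) had a TPM of 341.9, 378.6 and 387.2 with PBS and of 486.3, 495.6 and 485.7 at Acute 1 h. The groups did not overlap and the 3 treated libraries lay close together, with a log2(fold change) of 0.47 (SE 0.09, edgeR adjusted p = 0.00433). Neither call was lost when any 1 of the 6 libraries was left out.

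In TPM, 8 of the 10 genes lay above PBS in every Acute 1 h library, where 23% of the genes tested did. Groups without overlap were common, since 24.2 to 53.5% of the genes tested did not overlap in TPM in the 4 comparisons with PBS at 1 mM, 11.4 to 21.6% in those at 1 µM and 23.7 to 34.4% in those with AA. CHAC1 (ENSG00000128965, chr15:40952962-40956512, plus strand), which degrades glutathione, had 17.6, 20.97 and 23.59 TPM with PBS and 34.38, 38.27 and 31.48 at Acute 1 h. These groups did not overlap, yet the log2(fold change) of 0.81 (SE 0.28) had an edgeR adjusted p of 0.0655. Likewise, the TPM values of DDIT3, TRIB3, SESN2, PSAT1 and XBP1 did not overlap between Acute 1 h and PBS, with log2(fold change) values of 0.26 to 0.58 and edgeR adjusted p-values of 0.164 to 0.585. ASNS (-0.14) and HSPA5 (0.27) overlapped with PBS. These calls depended on a library outside the groups compared, since the 5 conditions of a dose share 1 estimate of the spread. Without Acute 24 h replicate 1 in the fit, all but ASNS and HSPA5 passed, 8 of 10 and all higher, at almost the same fold changes, while the share of all genes that passed was 39.8% and the share higher 19.9%. In that library 80% of the 10 genes were at least 2 times the mean of its partners, against 14.7% of genes overall. Leaving it out can thus lower the spread of these genes more often than that of others, so these shares are no like measure. With only Acute 1 h and PBS in the fit, all but ASNS passed, 9 of 10 where 45.5% of all genes did.

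**Figure D1:**
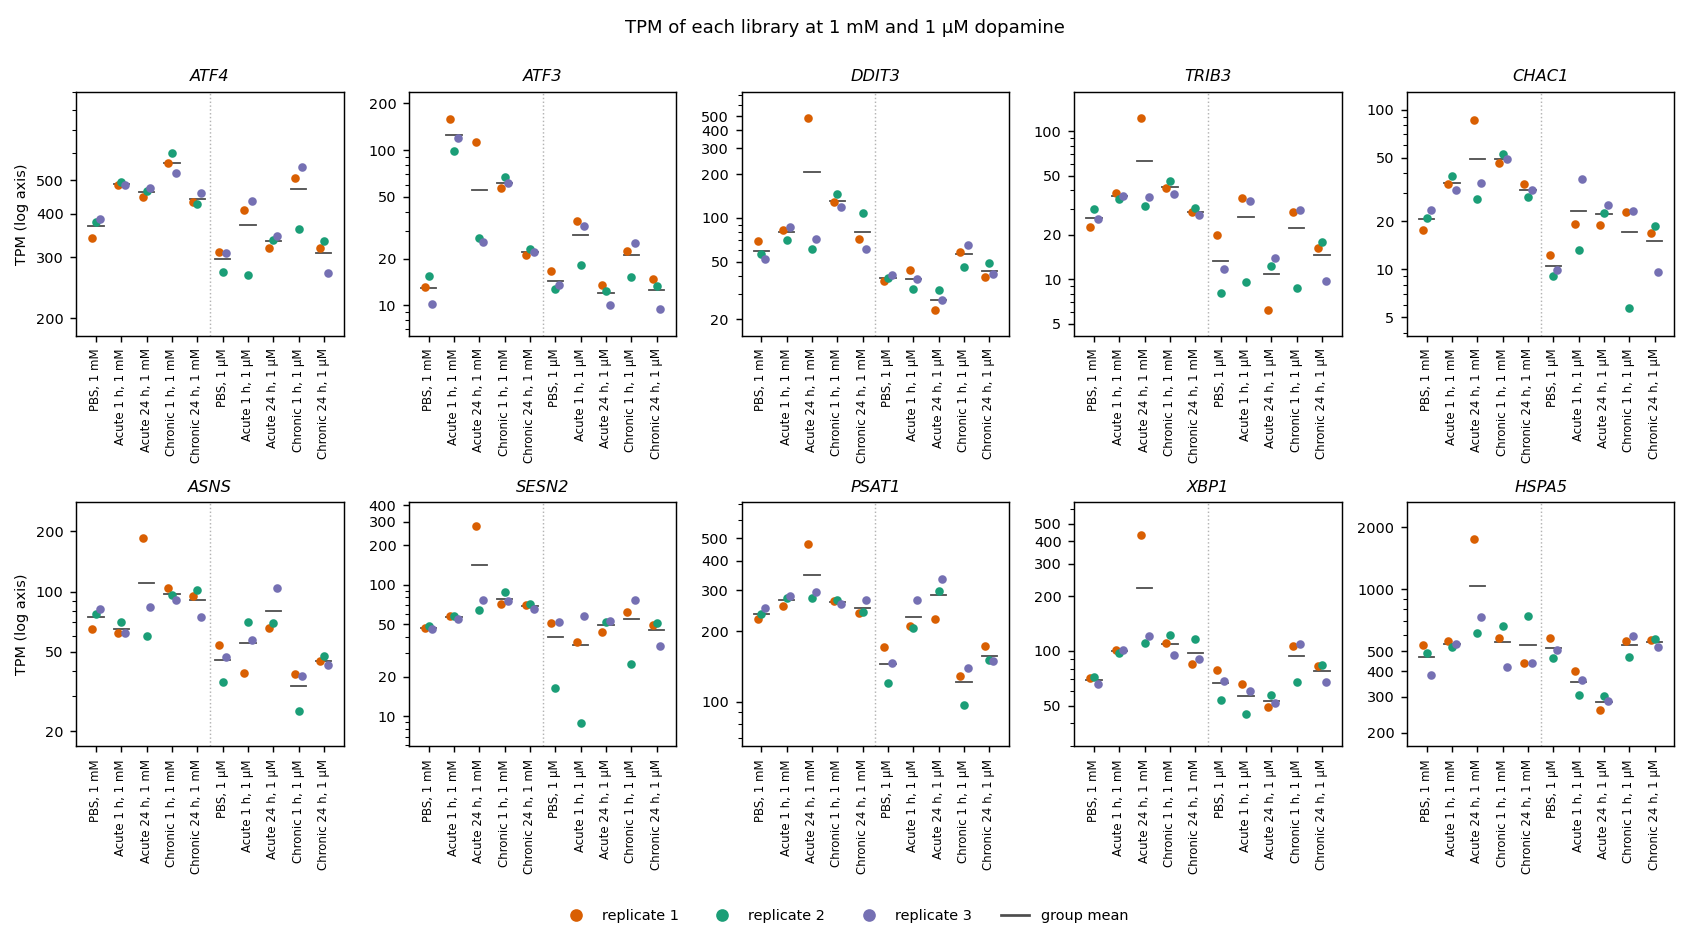
TPM (log axis) of each of the 10 genes in the 5 conditions of the 1 mM and of the 1 µM dopamine experiment, 1 point per library coloured by replicate number and a line at the group mean. ATF3 at Acute 1 h with 1 mM dopamine lies between 98.2 and 158.1 against 10.25 to 15.34 with PBS, and Acute 24 h replicate 1 at 1 mM stands far above its partners for most genes but not for ATF4.

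At Acute 24 h with 1 mM dopamine, 7 of the 10 genes passed the test, all higher, where 15.5% of all genes passed and 8.38% passed as higher. All 7 calls ended with only Acute 24 h and PBS in the fit, where none of the 10 genes and none of all genes (0%) passed edgeR's test, with 6 of the 10 and 3160 of all at an unadjusted p under 0.05. DESeq2, run with all conditions, called 7 of the 10, and 4066 genes in all against 2755 by edgeR. DESeq2 gave no p-value for DDIT3 in any comparison within the 1 mM experiment. This group held a library, replicate 1, that stood apart from the other two in most of these genes. DDIT3 (ENSG00000175197, chr12:57516588-57521737, minus strand), which codes for the pro-apoptotic factor CHOP, had 489.4, 61.42 and 72.02 TPM at Acute 24 h against 69.73, 56.7 and 52.28 with PBS. Replicate 1 was 7.34 times the mean of replicates 2 and 3, which overlapped with PBS. The log2(fold change) of 1.58 (SE 0.55) had an edgeR adjusted p of 0.063.

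In replicate 1, 8 of the 10 genes were at least 2 times the mean of replicates 2 and 3 (80%, median ratio 3.17), and the same held for 1906 of 12947 genes overall (14.7%, median 1.18). The ratio was 4.29 for ATF3, 4 for SESN2, 3.75 for XBP1, 3.69 for TRIB3, 2.78 for CHAC1, 2.62 for HSPA5 and 2.6 for ASNS. PSAT1 had a ratio of 1.66, while ATF4 itself had 0.954 and was not raised in that library. Neuron markers summed to 1829 TPM in replicate 1 and to 3384 and 3151 in replicates 2 and 3, against 3660 to 4211 with PBS. Progenitor markers summed to 2522, 2380 and 2661, and astrocyte markers to 12.14, 44.03 and 35.47. The part of these differences in the results was not tested.

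**Figure D2:**
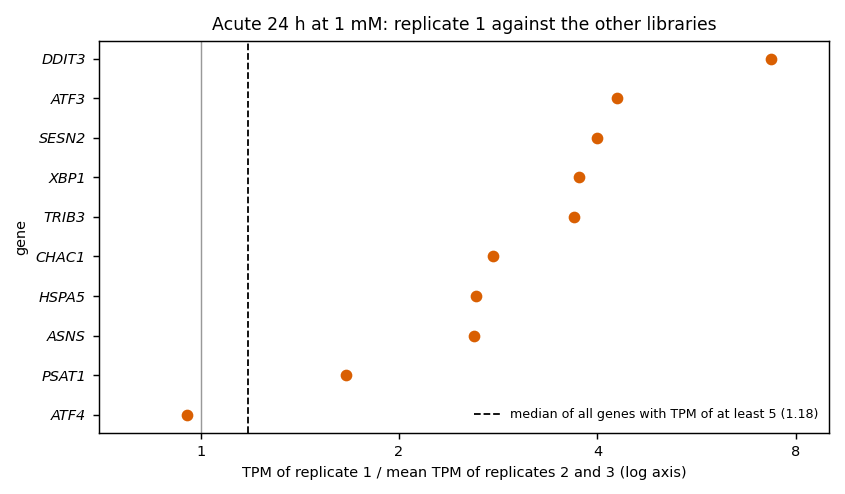
TPM of each gene in Acute 24 h replicate 1 at 1 mM divided by the mean of replicates 2 and 3 (log axis), with a dashed line at the median ratio of all genes, 1.18. DDIT3 has the highest ratio of the 10 genes, 7.34, and ATF4 the lowest, 0.954.

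Without replicate 1, 6 of the 10 genes passed at Acute 24 h, all higher, where 22.3% of all genes passed and 11.1% passed as higher. XBP1 (ENSG00000100219, chr22:28794555-28800597, minus strand), a transcription factor of the unfolded protein response, had 71.42, 71.58 and 65.56 TPM with PBS and 434.8, 110.4 and 121.5 at Acute 24 h. All 3 treated libraries lay above PBS, with a log2(fold change) of 1.49 (SE 0.35, edgeR adjusted p = 0.0176) and of 0.69 (adjusted p = 0.00137) without replicate 1. The call with all libraries was lost when any 1 of the PBS libraries was left out (adjusted p of 0.0562 to 0.0714).

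HSPA5 (ENSG00000044574, chr9:125234853-125241343, minus strand) had 537.2, 491.5 and 383.8 TPM with PBS and 1764, 616.1 and 732.1 at Acute 24 h. Its groups did not overlap. Its log2(fold change) was 0.98 (SE 0.30, edgeR adjusted p = 0.0464) with all libraries and 0.47 (adjusted p = 0.12) without replicate 1, so the call rested on that library, and it was also lost without any 1 PBS library. SESN2 (ENSG00000130766, chr1:28259518-28282491, plus strand) codes for sestrin 2, a leucine-sensing inhibitor of mTORC1. It had 46.72, 48.57 and 46.1 TPM with PBS and 280.9, 63.95 and 76.35 at Acute 24 h, with no overlap. Its log2(fold change) of 1.39 (SE 0.36, edgeR adjusted p = 0.0242) was 0.52 (adjusted p = 0.0012) without replicate 1, and the call was lost without any 1 PBS library (adjusted p of 0.0697 to 0.091).

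ATF3 had 113.3, 27.3 and 25.56 TPM at Acute 24 h, all above PBS. Its log2(fold change) was 1.91 (SE 0.41, edgeR adjusted p = 0.0128), and 0.98 (adjusted p = 0.0018) without replicate 1. The call was lost only without PBS replicate 1 (adjusted p = 0.0513). CHAC1 changed by 1.07 (adjusted p = 0.0249), and by 0.52 (adjusted p = 0.0141) without replicate 1. PSAT1 (ENSG00000135069, chr9:78297125-78330093, plus strand) changed by 0.41 (adjusted p = 0.0393), and by 0.21 (adjusted p = 0.0355) without it. Both calls were lost without any 1 PBS library, with adjusted p-values of up to 0.098 for CHAC1 and 0.139 for PSAT1. TRIB3 (ENSG00000101255, chr20:362835-397559, plus strand), a pseudokinase that dampens ATF4 and AKT signalling, changed by 1.10 (adjusted p = 0.0463) and by 0.31 (adjusted p = 0.064) without replicate 1, and its call too was lost without any 1 PBS library. ATF4 gave the opposite picture, since its log2(fold change) of 0.21 (adjusted p = 0.108) was 0.30 (adjusted p = 0.00701) without replicate 1.

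After daily 1 mM doses, Chronic 1 h cells had higher ATF4, ATF3 and CHAC1, 3 of 10 genes where 2.08% of all genes passed and 1.27% passed as higher. ATF4 was at 563.3, 601 and 525.3 TPM, above every PBS library, with a log2(fold change) of 0.57 (SE 0.09, edgeR adjusted p = 0.0063). ATF3 was at 56.82, 66.76 and 61.51 TPM, also above PBS, with 2.22 (SE 0.41, adjusted p = 0.0175). CHAC1 was at 46.28, 52.9 and 48.8 TPM, above PBS, with 1.21 (SE 0.28, adjusted p = 0.042).

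These calls were close to the threshold. Leaving out any 1 of the 6 libraries ended that of CHAC1 (adjusted p of 0.0789 to 0.187), and leaving out any but Chronic 1 h replicate 1 ended that of ATF3 (0.0556 to 0.0866). The call of ATF4 was lost without PBS replicate 1 or Chronic 1 h replicate 2 (0.0511 to 0.054). With Acute 24 h replicate 1 left out of the fit, SESN2, DDIT3, TRIB3 and XBP1 passed as well, 7 of 10 and all higher, where 18.4% of all genes passed and 9.25% passed as higher. With only Chronic 1 h and PBS in the fit there were 8, where 25.4% of all genes passed. In the former fit DDIT3 was at 1.09 (adjusted p = 0.000545), with 128, 145.2 and 118.7 TPM in the Chronic 1 h libraries, all above PBS. The limit given at Acute 1 h for leaving out that library holds for this fit too.

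At Chronic 24 h with 1 mM dopamine, none of the 10 genes passed edgeR's test where 0.663% of all genes did. ATF4 alone had an unadjusted p under 0.05, and DESeq2's Wald test also called 0. TPM values of ATF3 were 21.03, 23.02 and 21.93, all above PBS, with a log2(fold change) of 0.74 (SE 0.41, edgeR adjusted p = 0.565). Without Acute 24 h replicate 1 in the fit, ATF3 (adjusted p = 0.0133), SESN2, CHAC1, XBP1 and ATF4 passed, 5 of 10 and all higher, where 8.48% of all genes passed and 3.06% passed as higher. The same limit applies to this fit as at Acute 1 h.

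Chronic 1 h was also compared directly with Acute 1 h at 1 mM, the comparison in which a reduced response to repeated doses would show. None of the 10 genes passed edgeR's test where 11.3% of all genes did. DESeq2 called 1, and 2751 genes in all. ATF3 alone had an unadjusted p under 0.05 in edgeR's test. ATF3 was at 56.82 to 66.76 TPM at Chronic 1 h and at 98.2 to 158.1 at Acute 1 h, without overlap, and its log2(fold change) was -1.13 (SE 0.39, edgeR adjusted p = 0.078). ATF4, DDIT3, CHAC1, ASNS and SESN2 lay above their Acute 1 h values in every Chronic 1 h library, with log2(fold change) values of 0.10, 0.60, 0.40, 0.47 and 0.36, and so did 36.8% of the genes tested. In a fit that left out Acute 24 h replicate 1, ATF3 passed as lower (-1.11) and SESN2, ASNS, DDIT3 and CHAC1 passed as higher, 5 of 10 where 34% of all genes passed. The limit given above for leaving out that library applies here as well.

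Between Acute 24 h and Acute 1 h at 1 mM none of the 10 genes passed edgeR's test where 3.49% of all genes did, with 5 at an unadjusted p under 0.05 and 3 called by DESeq2. DESeq2 called 2271 genes in all. Without Acute 24 h replicate 1, ATF3 alone passed, at -2.34 (edgeR adjusted p = 2.9e-07), where 9.3% of all genes passed.

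The share of gene reads that lay in introns moved with these conditions. It was 19.5 to 21.8% with PBS, 12.3 to 13.2% at Acute 1 h, 12.5 to 15.9% at Acute 24 h, 20.6 to 20.9% at Chronic 1 h and 18.9 to 22.4% at Chronic 24 h. The part of this difference in the results was not tested. With total gene reads (exon and intron reads together) in place of exon reads, 5 of the 10 genes passed at Acute 1 h, namely ATF3 (3.43), CHAC1 (1.10), XBP1 (0.88), ATF4 (0.80) and PSAT1 (0.53), where 47.2% of all genes passed and 18.5% passed as higher.

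With 1 µM dopamine, ATF3 and PSAT1 rose and HSPA5 fell at Acute 1 h, 3 of 10 genes where 5.77% of all genes passed, 3.25% as higher and 2.52% as lower. All 3 calls ended with only Acute 1 h and PBS in the fit, where none of the 10 genes passed edgeR's test and 0.339% of all genes did, with 4 of the 10 at an unadjusted p under 0.05. DESeq2, run with all conditions, called 3, and 1770 genes in all against 954 by edgeR. ATF3 had 16.57, 12.77 and 13.56 TPM with PBS and 34.66, 18.23 and 32.38 at Acute 1 h. The groups did not overlap, with replicate 2 of Acute 1 h the lowest treated library, and the log2(fold change) was 0.97 (SE 0.22, edgeR adjusted p = 0.0191). The call was lost without PBS replicate 1, PBS replicate 3 or Acute 1 h replicate 1 (adjusted p of 0.0667 to 0.0884).

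PSAT1 had 170.8, 119.6 and 145.7 TPM with PBS and 209.8, 205.9 and 272 at Acute 1 h, without overlap. Its log2(fold change) was 0.68 (SE 0.12, edgeR adjusted p = 0.00317). HSPA5 had 579.5, 462.8 and 505.7 TPM with PBS and 398.2, 305.7 and 362.9 at Acute 1 h, so that every treated library was below every control. It fell by 0.53 on the log2 scale (SE 0.11, adjusted p = 0.013). Neither call was lost when any 1 library was left out of the fit of all conditions, but with only the groups compared the adjusted p was 0.169 for PSAT1 and 0.298 for HSPA5.

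At Acute 24 h with 1 µM dopamine PSAT1 and HSPA5 passed again, in the same directions, where 3.31% of all genes passed, 1.4% as higher and 1.91% as lower. PSAT1 was at 225.5, 297.6 and 334.8 TPM, above PBS, with a log2(fold change) of 0.92 (SE 0.12, edgeR adjusted p = 0.000733). HSPA5 was at 257.9, 302.1 and 287.2 TPM, below every PBS library, and fell by 0.92 on the log2 scale (SE 0.11, adjusted p = 0.000586). Neither call was lost when any 1 library was left out or with only the groups compared, where ASNS passed too and 2.13% of all genes did. ASNS (ENSG00000070669, chr7:97851677-97872542, minus strand), asparagine synthetase, had 53.86, 35.34 and 47.06 TPM with PBS and 65.56, 69.77 and 104.1 at Acute 24 h. Its groups did not overlap, and its log2(fold change) was 0.77 (SE 0.22, adjusted p = 0.0803). Progenitor markers summed to 2526 to 2906 TPM at Acute 24 h and 2023 to 2964 at Acute 1 h, against 3125 to 3987 with PBS, and their part in the results was not tested.

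At Chronic 1 h with 1 µM dopamine only ATF4 passed among the 10 genes, and it was higher, where 2.58% of all genes passed and 1.75% passed as higher. ATF4 had 310.9, 271.5 and 307.5 TPM with PBS and 507.5, 361.3 and 547.4 at Chronic 1 h. The groups did not overlap, and the log2(fold change) was 0.69 (SE 0.13, edgeR adjusted p = 0.0105). The call was lost without PBS replicate 1 (adjusted p = 0.0501) and with only the groups compared (adjusted p = 0.0999, where 0.221% of all genes passed). XBP1 had 78.86, 53.74 and 68.77 TPM with PBS and 106, 67.16 and 109.8 at Chronic 1 h, with replicate 2 lowest in both groups, and its log2(fold change) of 0.52 (SE 0.13) had an adjusted p of 0.0515. At Chronic 24 h with 1 µM none of the 10 genes and none of the 16541 genes tested passed edgeR's test (0%), with 608 genes but none of the 10 at an unadjusted p under 0.05, and DESeq2 called 1 gene, not one of the 10.

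Replicate 2 stood apart for some of the genes at 1 µM. SESN2 was at 16.24 TPM in PBS replicate 2, 8.833 in Acute 1 h replicate 2 and 25.03 in Chronic 1 h replicate 2, and at 36.95 to 76.28 in the other libraries of those conditions. TRIB3 was the lowest of its condition in the same 3 libraries, at 8.127, 9.562 and 8.766 TPM. Acute 1 h replicate 2 had 31.2% of its gene reads in introns, the highest share at 1 µM. PBS replicate 2 had exon reads in 16085 genes, the fewest at 1 µM, where the most was 21554. Intron shares were 22.3 to 23.6% with PBS and 15.3 to 23.6% at Chronic 1 h. The part of these differences in the results was not tested. With replicate 2 left out of every 1 µM condition, CHAC1 (1.39), TRIB3 (1.19) and ATF4 (0.50) also passed at Acute 1 h, which made 6 of 10 where 8.24% of all genes passed. At Acute 24 h ASNS (0.86) and CHAC1 (1.12) passed in addition, 4 of 10 where 6.28% passed. At Chronic 1 h XBP1 (0.62) joined ATF4, 2 of 10 where 4.45% passed. This fit was added after seeing the data, with replicate 2 low in some of these genes, so the added calls are no independent support. Replicate numbers were also not taken to pair the libraries.

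Within the 1 µM experiment, Chronic 1 h differed from Acute 1 h in 3 of the 10 genes where 1.2% of all genes passed. PSAT1 fell by 0.90 on the log2 scale (SE 0.12, edgeR adjusted p = 0.0022), with 129, 96.52 and 139.1 TPM at Chronic 1 h, all below Acute 1 h. HSPA5 was higher by 0.62 (SE 0.11, adjusted p = 0.0139), at 559, 466.8 and 589.3 TPM. XBP1 was higher by 0.75 (SE 0.13, adjusted p = 0.0141), a call that was lost without Chronic 1 h replicate 1 or 3 (adjusted p = 0.0743). Between Acute 24 h and Acute 1 h, ATF3 fell by 1.26 on the log2 scale (SE 0.22, adjusted p = 0.0158), to 13.51, 12.38 and 10.02 TPM, where 0.592% of all genes passed and 0.447% passed as lower. That call was lost without Acute 1 h replicate 1 or Acute 24 h replicate 2 or 3 (adjusted p of 0.0924 to 0.114). With only the groups compared, none of the 10 genes passed edgeR's test in either comparison, where 0% and 0.165% of all genes did, with 6 and 4 of the 10 at an unadjusted p under 0.05 and 4 and 2 called by DESeq2 with all conditions. DESeq2 called 697 and 421 genes in all.

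The change against PBS was then compared between the doses by an interaction term in a fit of both experiments. After 1 h, ATF3 alone of the 10 genes differed, where 2.01% of all genes did. Its change was larger at 1 mM by 2.39 on the log2 scale (SE 0.47, edgeR adjusted p = 0.00592), from 3.34 at 1 mM and 0.97 at 1 µM, and the call held without any 1 library. PSAT1 (difference -0.40, adjusted p = 0.24) and HSPA5 (0.82, adjusted p = 0.213) did not pass. After 24 h, HSPA5, XBP1 and ATF3 differed, 3 of 10 where 0.663% of all genes did. All 3 calls at 24 h ended with only the 4 groups compared in the fit, where none of the 10 genes passed edgeR's test and 0.00588% of all genes did, with 6 of the 10 at an unadjusted p under 0.05 and adjusted p-values of 0.166 for HSPA5, 0.339 for XBP1 and 0.35 for ATF3. DESeq2, run with all conditions, called 4, and 440 genes in all against 122 by edgeR. HSPA5 differed by 1.88 (SE 0.33, adjusted p = 0.00536), with a change of 0.98 at 1 mM and of -0.92 at 1 µM. XBP1 differed by 1.85 (SE 0.38, adjusted p = 0.0172), with 1.49 at 1 mM and -0.38 at 1 µM. ATF3 differed by 2.18 (SE 0.47, adjusted p = 0.0263), with 1.91 and -0.29.

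Without Acute 24 h replicate 1 at 1 mM, these differences at 24 h were 1.39 for HSPA5 (edgeR adjusted p = 0.00503), 1.07 for XBP1 (adjusted p = 0.00371) and 1.29 for ATF3 (adjusted p = 0.0354), where 0.55% of all genes passed. PSAT1 then passed too, with a change that was smaller at 1 mM (difference -0.70, adjusted p = 0.00964). In the fit of all conditions the difference in HSPA5 was called without any 1 of the 12 libraries. That in XBP1 was lost without PBS replicate 2 or 3 of the 1 mM experiment or Acute 24 h replicate 3 at 1 µM (adjusted p of 0.0507 to 0.058). That in ATF3 was lost without any 1 PBS library at 1 mM, PBS replicate 1 or 2 at 1 µM, or Acute 24 h replicate 2 or 3 at 1 µM (0.0502 to 0.0925).

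**Figure D3:**
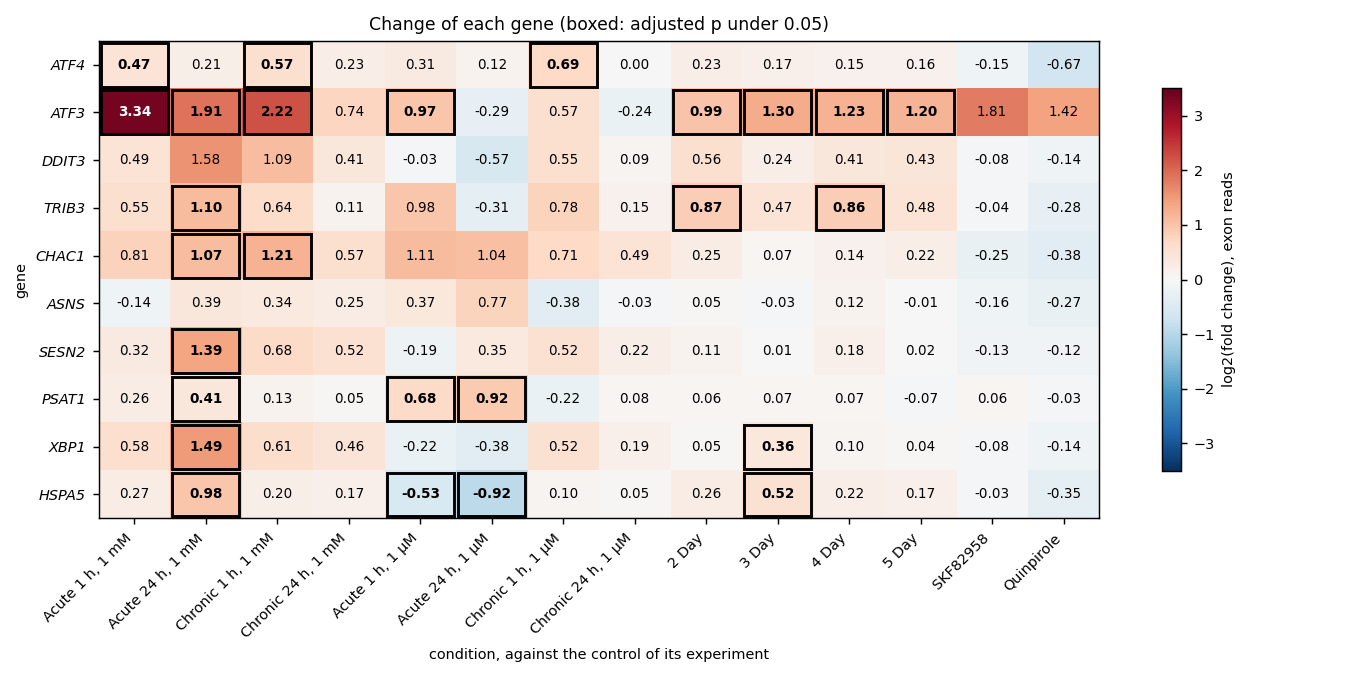
log2(fold change) of the 10 genes (exon reads, edgeR) in the 14 comparisons of a condition with its control, as colour, with a box around each value whose adjusted p was under 0.05. ATF3 is boxed in more comparisons than any other of the 10 genes, with 3.34 at Acute 1 h and 1 mM as its largest value, and HSPA5 is boxed as lower at Acute 1 h and Acute 24 h with 1 µM.

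In the time course all treated conditions share the 3 AA libraries. ATF3 rose on each of the 4 days. It had 11.28, 10.18 and 12.81 TPM with AA, 21.4, 25.51 and 14.53 at 2 Day, 22.25, 26.85 and 30.09 at 3 Day, 28.15, 26.39 and 24.35 at 4 Day, and 18.59 and 30.07 at 5 Day. No treated library overlapped with AA, and 2 Day replicate 3 came closest. The log2(fold change) was 0.99 (SE 0.18, edgeR adjusted p = 0.00916) at 2 Day, 1.30 (SE 0.18, adjusted p = 0.00071) at 3 Day, 1.23 (SE 0.18, adjusted p = 0.0017) at 4 Day and 1.20 (SE 0.20, adjusted p = 0.00843) at 5 Day. The share of all genes that passed was 3.88, 7.37, 4.38 and 1.63% on these days, and the share higher 1.89, 4.77, 2.58 and 1.23%. The call at 2 Day was lost without 2 Day replicate 2 or AA replicate 2 (adjusted p of 0.0601 to 0.0665), while those of the later days held without any 1 library. Between 5 Day and 2 Day none of the 10 genes passed, with none at an unadjusted p under 0.05 and none called by DESeq2, where 0.0239% of all genes passed, so no difference between these days was detectable with 2 and 3 libraries.

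TRIB3 rose at 2 Day and 4 Day. It had 16.04, 15.31 and 9.393 TPM with AA, 19.73, 30.33 and 16.55 at 2 Day and 26.13, 22.7 and 23.55 at 4 Day, and neither day overlapped with AA. The log2(fold change) was 0.87 (SE 0.22, edgeR adjusted p = 0.0381) at 2 Day and 0.86 (SE 0.22, adjusted p = 0.0389) at 4 Day. Both calls were weak, since that of 2 Day was lost without 2 Day replicate 2 or any 1 AA library (adjusted p of 0.0738 to 0.254) and that of 4 Day without any 1 of the 6 libraries (0.0747 to 0.139).

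HSPA5 and XBP1 passed at 3 Day. HSPA5 had 339.3, 335.2 and 361.9 TPM with AA and 441.8, 450 and 494 at 3 Day. The groups were separate, and the log2(fold change) was 0.52 (SE 0.08, edgeR adjusted p = 0.00196), a call that held without any 1 library. XBP1 had 62.92, 63.04 and 67.6 TPM with AA and 75.88, 76.39 and 79.65 at 3 Day, also separate, with 0.36 (SE 0.08, adjusted p = 0.0172). Its call was lost without 3 Day replicate 2 or 3 or AA replicate 1 or 2 (adjusted p of 0.075 to 0.102). On the other days neither gene passed edgeR's test. HSPA5 was at an unadjusted p under 0.05 in that test at 2 Day and 4 Day, and DESeq2 called it at 2 Day (0.25, DESeq2 adjusted p = 0.0453). Whether 3 Day differed from the other days was not tested. Mesenchymal markers summed to 269.9 to 463.9 TPM and astrocyte markers to 91.48 to 114.6 at 3 Day, against 180.5 to 236.1 and 55.71 to 71.39 with AA, and their part in the results was not tested. Mesenchymal markers were also at 225.3 to 340 at 2 Day, 335.4 to 367.9 at 4 Day and 259.2 to 419.2 at 5 Day.

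ATF4 did not pass edgeR's test on any day, with log2(fold change) values of 0.23, 0.17, 0.15 and 0.16, and DDIT3 did not either, with 0.56, 0.24, 0.41 and 0.43. For ASNS, SESN2, PSAT1 and CHAC1, values lay between -0.07 and 0.25 over the 4 days. ATF4 at 2 Day and DDIT3 at 2 Day, 4 Day and 5 Day were at an unadjusted p under 0.05. DESeq2 called DDIT3 at 2 Day (0.54, DESeq2 adjusted p = 0.04). The 5 Day cells and the Chronic 1 h cells of the 1 mM experiment had the same dose, number of days and time of collection, but another control and another experiment. ATF4 was at 298.1 and 346.9 TPM at 5 Day and at 525.3 to 601 at Chronic 1 h, with AA at 309.9 to 321.2 and PBS at 341.9 to 387.2. CHAC1 was at 17.12 and 26.26 TPM at 5 Day and at 46.28 to 52.9 at Chronic 1 h, with AA at 19.2 to 20.75 and PBS at 17.6 to 23.59. The values did not overlap between these experiments for either gene, and the difference was not tested.

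**Figure D4:**
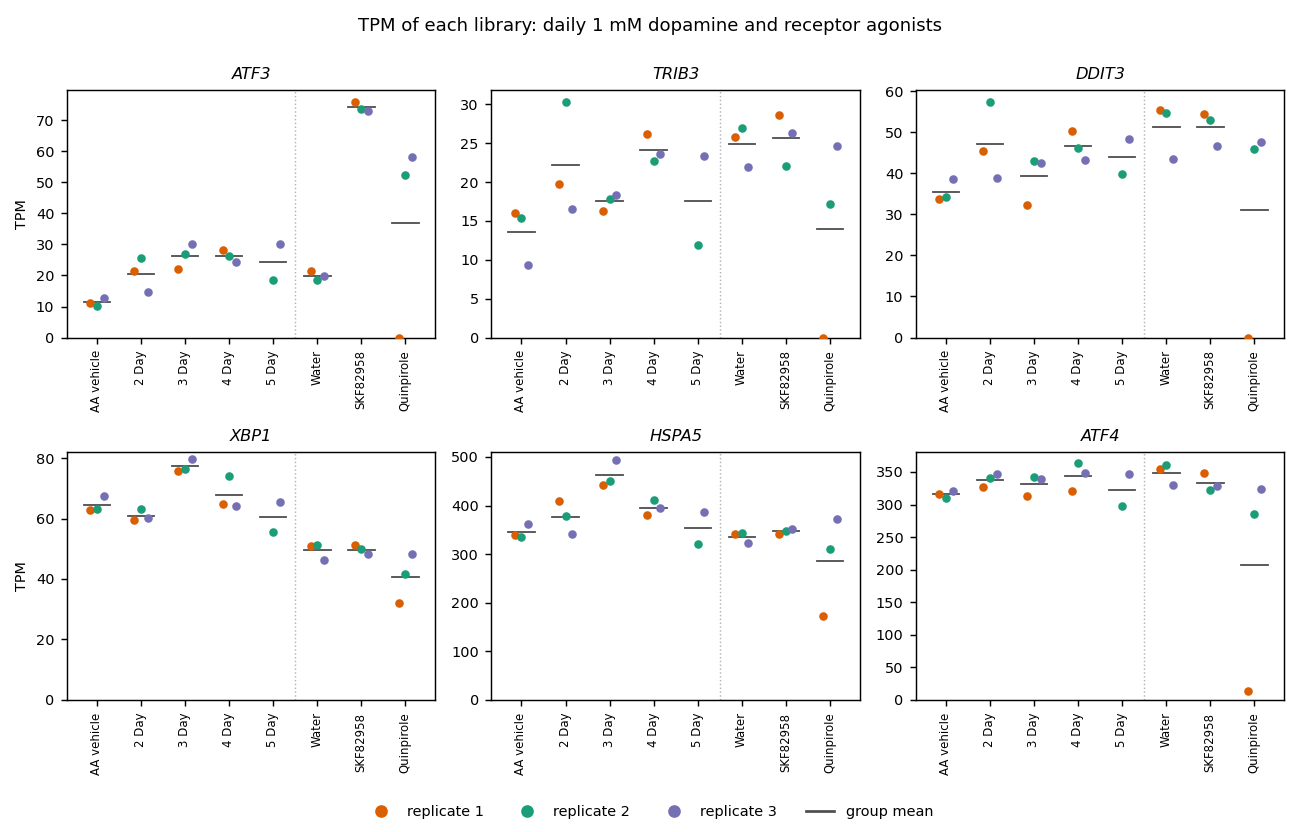
TPM of ATF3, TRIB3, DDIT3, XBP1, HSPA5 and ATF4 in the time course (AA, 2 Day to 5 Day) and the agonist experiment (water, SKF82958, quinpirole), 1 point per library and a line at the group mean, which includes quinpirole replicate 1. ATF3 lies at 14.53 to 30.09 on the treated days against 10.18 to 12.81 with AA, and at 72.84 to 75.99 with SKF82958 against 18.41 to 21.43 with water.

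In the agonist experiment ATF3 stood out in TPM among the 10 genes. It was at 21.43, 18.41 and 19.95 TPM with water, at 75.99, 73.54 and 72.84 with SKF82958, and at 0, 52.38 and 58.03 with quinpirole. All SKF82958 libraries and quinpirole replicates 2 and 3 lay above water, while quinpirole replicate 1 also listed DDIT3, TRIB3, CHAC1, ASNS and PSAT1 at 0, which at its depth does not show that they were absent. With all libraries, none of the 10 genes passed edgeR's test with SKF82958, where 0.0124% of all genes did, with 1 at an unadjusted p under 0.05 and none by DESeq2. ATF3 had a log2(fold change) of 1.81 (SE 0.24, edgeR adjusted p = 0.132). Without quinpirole replicate 1 in the fit, ATF3 alone passed, at 1.81 (SE 0.08, adjusted p = 6.86e-09), where 0.624% of all genes passed.

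For quinpirole, none of the 10 genes and none of all genes (0%) passed edgeR's test, with 350 genes, 1 of them among the 10, at an unadjusted p under 0.05, and 107 genes but none of the 10 called by DESeq2. ATF3 had a log2(fold change) of 1.42 (SE 0.26, edgeR adjusted p = 0.641). Without replicate 1 it was 1.51 (SE 0.09, adjusted p = 3.7e-07), where 0.184% of all genes passed. Both agonists were compared with the same 3 water libraries. ATF4 was at 321.8 to 347.7 TPM with SKF82958, at 286.1 and 323.2 with quinpirole in replicates 2 and 3, and at 330.7 to 360 with water.

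Other genes of the same pathways were read from lists. Of 25 genes of protein folding and quality control in the endoplasmic reticulum (the 10 genes left out), 20 passed as higher and none as lower at Acute 24 h with 1 mM dopamine, with a median log2(fold change) of 0.59 where the median over all genes lay within 0.05 of 0. Without replicate 1 these were 18 and 0, with a median of 0.42, and without PBS replicate 1, 2 or 3 there were 10, 8 and 9 calls. With only the groups compared none passed edgeR's test, with 17 at an unadjusted p under 0.05. DESeq2 with all conditions called 19, where it called 4066 genes in all. DNAJB9, a co-chaperone of HSPA5, had the largest change among them (1.68, from 56.25 to 209.6 TPM), followed by DNAJC3 (1.49) and CREB3L2 (1.47), and all 3 of these calls were lost without any 1 PBS library, that of DNAJB9 also without replicate 1. At Acute 1 h 4 of 25 passed as higher with a median of 0.29, including SDF2L1 (0.68), CALR (0.46) and PDIA3 (0.46), and 2 or 3 without any 1 library, with CALR and PDIA3 called throughout. With total gene reads 15 of 25 passed as higher at Acute 1 h, and without Acute 24 h replicate 1 in the fit 14 passed as higher and 3 as lower, on the backgrounds given above. At Chronic 1 h and Chronic 24 h none passed edgeR's test, with 4 and 2 at an unadjusted p under 0.05 and 0 called by DESeq2 in both. A fit without Acute 24 h replicate 1 gave another count, since 7 passed as higher and 1 as lower at Chronic 1 h and 6 as higher at Chronic 24 h, where 9.25% and 3.06% of all genes passed as higher. Between Chronic 1 h and Acute 1 h at 1 mM, 4 of 25 passed as lower and none as higher, where 11.3% of all genes passed. CALR (-0.60) and PDIA3 (-0.48) were among them, and both calls held without any 1 library.

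With 1 µM dopamine none of these 25 genes passed as higher and 2 as lower at Acute 24 h (median -0.24), namely MANF (-0.63) and CALR (-0.54). The call of MANF was lost without any 1 library (edgeR adjusted p of up to 0.142) and that of CALR without PBS replicate 2 or Acute 24 h replicate 2 or 3 (up to 0.11). DERL2 alone of the 25 passed as higher at Acute 1 h (0.64) and Chronic 1 h (0.98) with 1 µM, where 3.25% and 1.75% of all genes did. Its call at Acute 1 h was lost without PBS replicate 2 or 3, and that at Chronic 1 h held without any 1 library. With only the groups compared none of the list passed edgeR's test in either condition, with 1 and 4 at an unadjusted p under 0.05. The difference between the doses at 24 h passed in 10 of 25, all larger at 1 mM (median 0.80), and in 8 without Acute 24 h replicate 1 at 1 mM. With only the groups compared none passed edgeR's test, with 15 at an unadjusted p under 0.05. Leaving out any 1 of the PBS libraries of either dose or of the 1 µM Acute 24 h libraries left 3 to 7. At 3 Day of the time course 15 of 25 passed as higher (median 0.35), including P4HB (0.58), CREB3L2 (0.49) and DNAJC3 (0.47), and none passed edgeR's test at 2 Day, 4 Day or 5 Day, with 3, 4 and 2 at an unadjusted p under 0.05 and 0, 1 and 0 called by DESeq2. The 15 calls rested on few libraries, since leaving out AA replicate 1 left 3, leaving out 3 Day replicate 2 left 4, and leaving out 3 Day replicate 3 or AA replicate 2 left 5.

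**Figure D5:**
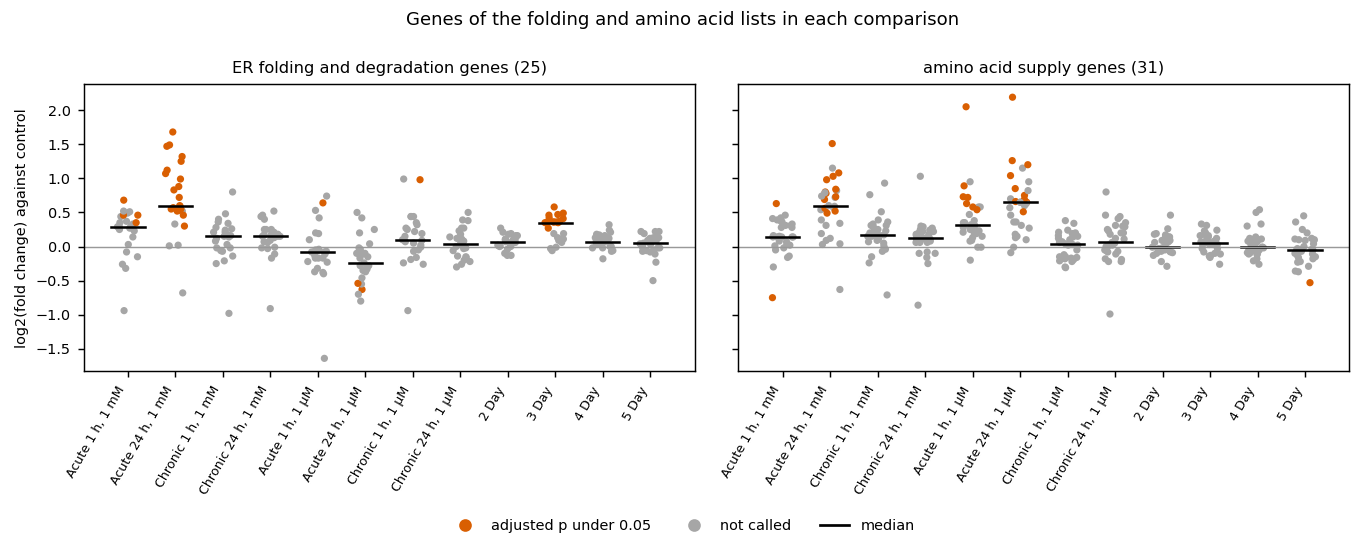
log2(fold change) of the 25 genes of folding in the endoplasmic reticulum and of the 31 genes of amino acid supply in 12 comparisons, 1 point per gene, orange where the adjusted p was under 0.05, with a line at the list's median. The folding list lies highest at Acute 24 h with 1 mM dopamine (median 0.59), and the amino acid list has its highest median at Acute 24 h with 1 µM (0.65).

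Of 31 further genes of amino acid synthesis, transport and tRNA charging, 12 passed as higher at Acute 24 h with 1 mM dopamine (median 0.60). Without replicate 1 these were 11 higher and 1 lower with a median of 0.16, and there were 2, 2 and 6 calls without PBS replicate 1, 2 or 3 and 24 without Acute 24 h replicate 2 or 3. The number was 26 with total gene reads, where 43.8% of all genes passed and 18.3% passed as higher, and none passed edgeR's test with only the groups compared, with 11 at an unadjusted p under 0.05 and 20 called by DESeq2 with all conditions. DESeq2 called 4066 genes in all there. SLC7A11, the cystine transporter, had the largest change (1.51, from 7.587 to 24.62 TPM), a call that was lost without PBS replicate 1 or 2. With 1 µM dopamine 7 of 31 passed as higher at Acute 1 h (median 0.31) and 10 at Acute 24 h (median 0.65), where 3.25% and 1.4% of all genes passed as higher. SLC7A11 changed by 2.05 at Acute 1 h (from 1.46 to 5.807 TPM) and by 2.19 at Acute 24 h, and both calls held without any 1 library. With only the groups compared none of the list passed edgeR's test at Acute 1 h, with 9 at an unadjusted p under 0.05 and 10 called by DESeq2 with all conditions, and 10 passed at Acute 24 h. DESeq2 called 1770 genes in all at Acute 1 h. CBS, which makes cystathionine from serine and homocysteine, changed by 0.89 and 1.20, and each call was lost without 4 of the 6 libraries in turn. At Acute 1 h the list had 2 to 4 calls without any 1 PBS library or Acute 1 h replicate 1, and at Acute 24 h 2 to 6 without any 1 library other than PBS replicate 3. With total gene reads the 1 µM calls were 2 and 4, where 5.83% and 2.13% of all genes passed. In the chronic conditions of both doses none of the 31 genes passed edgeR's test, with 1 to 3 per condition at an unadjusted p under 0.05 and 1 called by DESeq2, at Chronic 24 h with 1 mM. In a fit without Acute 24 h replicate 1, 9 passed as higher and 1 as lower at Chronic 1 h with 1 mM, and 9 as higher and 2 as lower at Chronic 24 h with 1 mM. Between Chronic 1 h and Acute 1 h, 4 of 31 passed as lower and none as higher at 1 µM, where 1.2% of all genes passed. SLC7A11 was among them (-1.86), a call that was lost without Chronic 1 h replicate 1 or 3. With only the groups compared none passed edgeR's test there, with 10 at an unadjusted p under 0.05, where 0% of all genes passed.

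Of 15 further stress factors and stress targets of the pathway, 14 were tested. At Acute 1 h with 1 mM dopamine 4 passed as lower and none as higher, and at Acute 24 h and Chronic 24 h 2 passed as lower and none as higher, where 7.94, 7.09 and 0.545% of all genes passed as lower. The balance of higher and lower calls depended on the fit. With total gene reads 6 were higher and 2 lower at Acute 24 h (median 0.52), and without Acute 24 h replicate 1 in the fit 4 were higher and 3 lower at Chronic 1 h and 1 higher and 6 lower at Acute 1 h. The largest falls were those of DDIT4, an inhibitor of mTORC1 that low oxygen also induces, and STC2, a secreted glycoprotein. DDIT4 fell by 2.16 on the log2 scale at Acute 1 h (edgeR adjusted p = 0.000837), from a mean of 880.1 to 187.7 TPM, and by 1.89, 1.55 and 2.01 at Acute 24 h, Chronic 1 h and Chronic 24 h. Its acute calls held without any 1 library, while those at Chronic 1 h and Chronic 24 h were lost without 5 and 3 of the 6 libraries in turn (adjusted p of up to 0.108 and 0.102). STC2 fell by 2.24 at Acute 1 h (edgeR adjusted p = 0.00128), from 69.17 to 13.91 TPM, and by 2.56 at Acute 24 h. With 1 µM dopamine STC2 fell by 1.13 at Acute 1 h, by 1.33 at Acute 24 h and by 0.72 at Chronic 1 h, and only the last of these calls was lost with 1 library left out, whichever it was. ERO1A, an oxidase of the endoplasmic reticulum, fell by 0.70 at Acute 1 h with 1 mM. Calls as higher were those of NUPR1 (1.29) at Chronic 1 h with 1 mM and JDP2 (1.23) at Acute 1 h with 1 µM. BBC3 fell by 1.54 at Acute 1 h with 1 µM, a call that was lost without 4 of the 6 libraries in turn.

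Of 18 regulators, among them the eIF2 kinases, the subunits of eIF2B and the eIF2 phosphatase subunits, at most 2 passed as higher in any comparison with a control, at the shares of all genes given above. With total gene reads there were 8 at Acute 1 h and 12 at Acute 24 h with 1 mM, where 18.5 and 18.3% of all genes passed as higher, and without Acute 24 h replicate 1 in the fit there were 7 at Chronic 1 h with 1 mM, where 9.25% did. PPP1R15A, the inducible phosphatase subunit also called GADD34, rose by 0.88 at Acute 1 h with 1 mM dopamine (from 60.03 to 105.4 TPM), by 0.94 at Chronic 1 h with 1 mM, by 0.83 at Chronic 1 h with 1 µM and by 0.53 at 2 Day. The calls at 1 mM held without any 1 library, while that at 1 µM was lost without any 1 and that at 2 Day without 4 of the 6. EIF2AK3, the eIF2 kinase PERK of the endoplasmic reticulum, rose by 0.92 at Acute 24 h with 1 mM, by 0.73 at Acute 1 h and 1.15 at Chronic 1 h with 1 µM, and by 0.42, 0.48 and 0.41 at 2 Day, 4 Day and 5 Day. Its calls at Chronic 1 h with 1 µM, 2 Day and 4 Day held without any 1 library and the others did not. With only the groups compared, no stress factor and no regulator passed edgeR's test at Acute 24 h with 1 mM or at Acute 1 h or Chronic 1 h with 1 µM, with 2, 3 and 4 stress factors and 1, 1 and 3 regulators at an unadjusted p under 0.05, where DESeq2 with all conditions called 5, 3 and 2 stress factors and 4, 1 and 2 regulators. In these conditions DESeq2 called 4066, 1770 and 945 genes in all. EIF2B5, a subunit of eIF2B, fell by 0.47 at Acute 1 h with 1 mM. None of the genes of these lists passed with either agonist in edgeR's test, where 2 were at an unadjusted p under 0.05, both with quinpirole, and DESeq2 called 0. These fits hold quinpirole replicate 1. With only SKF82958 and water in the fit none of these genes passed either, where 0.939% of all genes did. There 9 amino acid genes, 6 stress factors, 2 regulators and 1 folding gene were at an unadjusted p under 0.05, and so were 1777 of the 15868 genes tested. Counts of the lists for quinpirole without its replicate 1 are not given here.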

How the data were processed

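Per the methods of the authors, reads were trimmed of adaptors and mapped with CLC Genomics Workbench to GRCh38 (Ensembl genes). The authors deposited 1 table of 60676 genes per library, with counts of reads on exons, on introns, in total and uniquely mapped. The deposited TPM values were made by the authors from exon reads and exon length. The strand used in counting and the sequencing provider of each library are not given in the sources used here, so reads of overlapping genes are uncertain. Groups were taken from the sample labels.

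The counts on exons were compared in R 4.3.3 by edgeR 4.0.16 (filterByExpr with a minimum count of 10 and a minimum total of 15, TMM, glmQLFit, glmQLFTest, Benjamini-Hochberg adjustment over all genes tested within each of 21 comparisons), with all conditions of an experiment in 1 fit and both dopamine experiments in 1 fit for the interaction. All 10 genes passed the filter on low counts in every comparison. Standard errors were derived from the log2(fold change) and F. TPM was used for levels. Tables, windows and figures were made with Python 3.11.15, numpy 2.4.6, pandas 2.3.3 and matplotlib 3.10.9, and the test was tested on simulated data. Promoter windows came from RefSeq, and positions of genes from the deposited tables.

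The 10 genes and the pathway lists were chosen with earlier results of these data known. Genes named from a list were taken from those that passed with a mean of at least 1 TPM in the higher group. They were among the 3 per direction and comparison with the largest fold change, and not every such gene is named. For likeness the 5 genes with the highest Pearson r of log2(TPM + 1) over the 53 libraries, centred on each experiment, are named, among genes with a mean TPM of at least 5. Alternatives were total gene reads, uniquely mapped reads, DESeq2's size factors, the Wald test of DESeq2 1.42.0, no filter, at least 10 reads in every library, only the groups compared, a replicate block, a fold threshold, each library left out and, for the comparisons that do not hold it, a fit without Acute 24 h replicate 1 at 1 mM, which was chosen with earlier results known. Fits without quinpirole replicate 1 for SKF82958 and without replicate 2 of every 1 µM condition were added after seeing the data. Acute 24 h replicate 1 at 1 mM and replicate 2 at 1 µM stood apart in genes described here. Calls that the fits without them add, also in the lists, are therefore no independent support. CLC's own differential test was not used here, nor were tables of the paper.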

Additional observations from a re-analysis of the deposited data

Results flagged for a closer look

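The change of 3 genes against PBS differed between the 1 mM and the 1 µM experiment by a test of the difference itself (an interaction term, edgeR adjusted p). For ATF3 the difference on the log2 scale was 2.39 at Acute 1 h (adjusted p = 0.00592) and 2.18 at Acute 24 h (adjusted p = 0.0263). At Acute 24 h it was 1.85 for XBP1 (adjusted p = 0.0172) and 1.88 for HSPA5 (adjusted p = 0.00536). With only the 4 groups compared in the fit, the difference in ATF3 at Acute 1 h passed again (2.37, adjusted p = 0.00392) and none of the 3 at Acute 24 h did (adjusted p of 0.166 to 0.35). In HSPA5 the change was positive at 1 mM (0.98) and negative at 1 µM (-0.92). Dose and experiment cannot be told apart in these values.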

How the results depend on the processing

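Counts below are numbers of the 10 genes that passed, and a count without the share of all genes beside it says little about these genes. With only the groups compared in a fit, they were 9 at Acute 1 h (45.5% of all genes), 0 at Acute 24 h (0%), 8 at Chronic 1 h (25.4%) and 2 at Chronic 24 h (1.45%) with 1 mM. With 1 µM they were 0 at Acute 1 h (0.339%) and 0 at Chronic 1 h (0.221%). Against Acute 1 h, Chronic 1 h had 5 at 1 mM (44%) and 0 at 1 µM (0%), and Acute 24 h had 0 at 1 µM (0.165%). They were 4 at 4 Day (13.5%) and 1 for SKF82958 (0.939%). For the difference between doses they were 2 at Acute 1 h (0.935%) and 0 at Acute 24 h (0.00588%). Total gene reads gave 5 at Acute 1 h with 1 mM, where 47.2% of all genes passed, so that count lay near the share of all genes. They also gave 2 for Chronic 1 h and 1 for Acute 24 h against Acute 1 h at 1 mM, 1 at 2 Day, 1 at 4 Day and 4 for the doses at Acute 1 h. Uniquely mapped reads gave 4 at Acute 1 h with 1 mM, 2 for Chronic 1 h against Acute 1 h at 1 mM, 1 at 4 Day and 4 for the doses at Acute 1 h. Without a filter, both comparisons with Acute 1 h at 1 mM gave 1, and with at least 10 reads Chronic 1 h at 1 µM gave 2 and Acute 24 h against Acute 1 h at 1 mM gave 1. DESeq2's Wald test gave 2 at Chronic 1 h with 1 µM, 1 and 3 for Chronic 1 h and Acute 24 h against Acute 1 h at 1 mM, 2 for Acute 24 h against Acute 1 h at 1 µM and 4 at 2 Day. In the same order it called 945, 2751, 2271, 421 and 902 genes in all. A fold threshold of 2 gave 1 at Acute 1 h with 1 mM, 0 in the conditions with 1 µM and for Chronic 1 h against Acute 1 h there, 0 at 2 Day, and 1 at 3 Day and 4 Day. Shares of all genes are not given here for uniquely mapped reads, the filters, the fold threshold and the other counts with total gene reads. Without Acute 24 h replicate 1 at 1 mM in the fit there were 8 at Acute 1 h (39.8% of all genes), 7 at Chronic 1 h (18.4%) and 5 at Chronic 24 h (8.48%). There were 5 for Chronic 1 h against Acute 1 h (34%) and 3 for the doses at Acute 1 h. Without quinpirole replicate 1, SKF82958 had 1 (0.624%). Without replicate 2 at 1 µM there were 6, 4 and 2 at Acute 1 h (8.24%), Acute 24 h (6.28%) and Chronic 1 h (4.45%), and 3 for Acute 24 h against Acute 1 h. DESeq2's size factors changed no call, and no call changed sign under any alternative. The cause of these differences was not tested.

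With 1 library left out, counts at 1 mM ran from 2 to 2 at Acute 1 h, 0 to 8 at Acute 24 h, 0 to 2 at Chronic 1 h and 0 to 0 at Chronic 24 h. At 1 µM they ran from 2 to 4, 2 to 2, 0 to 2 and 0 to 0. For Chronic 1 h and Acute 24 h against Acute 1 h they were 0 to 0 and 0 to 6 at 1 mM, and 2 to 4 and 0 to 2 at 1 µM. On the 4 days they were 0 to 3, 2 to 3, 1 to 1 and 1 to 1, and 0 to 0 for 5 Day against 2 Day. SKF82958 had 0 to 0, quinpirole 0 to 1, and the doses 1 to 1 at Acute 1 h and 1 to 4 at Acute 24 h. Shares of all genes for these counts are not given here, so the counts show only how far the calls moved.

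With replicate number as a block, 1 of the 10 genes passed at 2 Day and 1 at 4 Day, and no other count moved by over 1.5 times. Libraries with the same number deviated together (correlation over 0.1) in 3 of 30 pairs at 1 mM, 14 of 30 at 1 µM, 4 of 26 in the time course and 0 of 7 in the agonist experiment. Libraries with different numbers did so in 4 of 60, 25 of 60, 6 of 52 and 0 of 14 pairs, so the numbers were not taken to pair the libraries.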

Other observations

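The 5 genes whose levels followed those of 4 of the 10 genes most closely were chosen over all 53 libraries, by Pearson's r of log2(TPM + 1) centred on each experiment, among 13107 genes. Quinpirole replicate 1 with its many zeros raised these values (that of ATF4 with VDAC3 was 0.976), so r is given here over the other 52 libraries with the rank of the gene in them, and closer genes that the choice did not take are not named. The libraries share their experiments and their depth, and these values are descriptions. Acute 24 h replicate 1 at 1 mM is among the 52, with DDIT3 at 7.34, XBP1 at 3.75 and HSPA5 at 2.62 times the mean of its partners. That library alone can raise r, and r without it is not given here. DDIT3 went with HERPUD1, a gene of protein degradation at the endoplasmic reticulum (r = 0.863, rank 1), JUN (0.851, rank 2), CDK2AP2 (0.839, rank 3), GADD45A (0.823, rank 5) and RNF139 (0.820, rank 6). HSPA5 went with XBP1 (0.891, rank 1), DNAJC3 (0.820, rank 3), COPB2 (0.805, rank 6), PDIA4 (0.804, rank 7) and CRY1 (0.795, rank 8). For CHAC1 the genes were ZNF408 (0.834, rank 1), CYB5R1 (0.829, rank 2), FZD7 (0.825, rank 4), SLC1A4 (0.824, rank 5), an amino acid transporter, and TBCC (0.822, rank 6). For ATF4 they were CCDC137 (0.889, rank 1), VDAC3 (0.866, rank 2), YJU2 (0.862, rank 3), SUPT4H1 (0.854, rank 4) and SGTA (0.819, rank 18). ATF4 and HSPA5 had an r of 0.200 with each other, and HSPA5 and PSAT1 one of 0.003.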
